A study of Homo sapiens with 7 samples.

Results

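SEMA5A and 9 other genes of the semaphorin system were followed in cardiomyocytes given an antisense oligonucleotide (ASO) against MYH7B. The 10 genes were taken by symbol out of 60234 genes in the deposited expression table. They comprise 5 semaphorins (SEMA3A, SEMA3C, SEMA5A, SEMA6A, SEMA6D), 3 plexins (PLXNA2, PLXNB1, PLXND1) and both neuropilins (NRP1, NRP2). SEMA5A was chosen by its lower level under the MYH7B ASO, so its difference is given as a description with no test. The cells were grown from WTC-11, an established human induced pluripotent stem cell line, by small-molecule differentiation, and had matured for 35 days. They were then exposed passively to 2 uM of an ASO, a small man-made strand that base-pairs with its target RNA, for 96 h. The control group received a scrambled ASO (3 libraries) and the other group an ASO against MYH7B (4 libraries), so that every library came from ASO-treated cells of 1 line. The labels do not say that replicates were separate differentiations or cultures, so p-values measure the spread between these libraries, which may be technical.

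Levels are in TPM, a share of all transcripts in a library corrected for transcript length, from polyadenylated RNA. TPM keeps no record of sequencing depth, which is therefore unknown. The column of MYH7B ASO replicate 1 is out of register with the gene names. Its 58721 values were put back in order with the sorted gene identifiers of GENCODE 29, which raised its median correlation with the other libraries across genes from 0.408 to 0.955. Comparisons therefore rest on 3 scrambled libraries and MYH7B ASO replicates 2 to 4, and replicate 1 is given as a reordered value. MYH7B itself, the target, was at 23.0, 36.5 and 25.1 TPM in the scrambled libraries and at 9.30, 5.65 and 6.31 TPM in MYH7B ASO replicates 2 to 4 (log2 difference -1.85, SE 0.24, limma adjusted p = 0.0109). Reordered replicate 1 was lower still, at 1.29 TPM, and with it included the difference was -2.30 but the limma adjusted p was 0.0525, so the call was lost. Of 11 cardiomyocyte markers none passed the test, where 1.66% of all genes tested did. Of these markers 8 were below 0, against 8767 of 15988 over all genes tested. TNNT2, which encodes cardiac troponin T, was between 933 and 1324 TPM. RYR2, the sarcoplasmic calcium release channel, had means of 34.1 and 16.3 TPM without overlap (limma adjusted p = 0.0536), and MYH7 had means of 962 and 394 TPM with overlap. ACTN2, PLN, TNNI3 and MYL7 were also lower without overlap, and TNNI1 was higher without overlap. Over all genes tested 14.1% were lower and 7.11% higher without overlap. The share of mitochondrially encoded genes was 27.4 to 33.6% in the 6 libraries and 17.2% in replicate 1.

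Semaphorins are secreted or membrane-bound guidance proteins that share a sema domain. Plexins are their receptors, and the plexin cytoplasmic region acts on small GTPases to change the cytoskeleton and cell adhesion. Most secreted class 3 semaphorins first bind a neuropilin, a coreceptor that also binds vascular endothelial growth factors. In the heart, SEMA3C acts with PLXND1, PLXNA2 and neuropilins in outflow tract formation, SEMA3A patterns sympathetic nerves, and SEMA6D acts in chamber morphogenesis. SEMA5A is a transmembrane semaphorin with thrombospondin repeats in its extracellular part, and PLXNB3 is a receptor described for it.

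Promoter sequences are shown for SEMA5A, the gene with the largest difference among the 10, and for PLXNA2, a plexin whose level overlapped between the groups. They are the 250 bases upstream of the annotated start from RefSeq on GRCh38.p14, 5′ to 3′ on the strand of the gene, with capitals for the GC box letters GGGCGG on either strand, CCGCCC on the other. The SEMA5A window is chr5:9546076-9546325 (minus strand) and the PLXNA2 window is chr1:208244385-208244634 (minus strand).
SEMA5A: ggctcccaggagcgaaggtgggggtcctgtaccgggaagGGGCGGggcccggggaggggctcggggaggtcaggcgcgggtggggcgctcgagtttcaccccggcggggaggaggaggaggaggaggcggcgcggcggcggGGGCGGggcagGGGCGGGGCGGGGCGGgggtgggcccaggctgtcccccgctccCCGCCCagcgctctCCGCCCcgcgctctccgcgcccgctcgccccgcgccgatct
PLXNA2: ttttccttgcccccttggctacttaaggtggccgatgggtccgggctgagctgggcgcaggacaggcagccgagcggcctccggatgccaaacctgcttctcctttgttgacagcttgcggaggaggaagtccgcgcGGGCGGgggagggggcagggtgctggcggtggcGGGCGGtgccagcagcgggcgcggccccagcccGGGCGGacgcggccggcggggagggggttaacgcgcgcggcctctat
The SEMA5A window was 82.0% G or C, with 33 CpG dinucleotides and 7 GC boxes, some of which overlap each other. The PLXNA2 window was 72.4% G or C, with 27 CpG dinucleotides and 3 GC boxes. Over 35116 windows of the same length the medians were 58.0% and 11 CpG dinucleotides, 42.6% of windows held at least 1 GC box and 1.12% held at least as many as SEMA5A. The letters CATTCC on either strand, the M-CAT motif bound by TEAD factors, were in neither printed window and in 11.9% of all windows. RefSeq windows were found for 7 of the 10 genes, 11 windows in all, and 7 of these 11 held a GC box and 1, of PLXNB1, held CATTCC. These letter matches are a description of the windows only.

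SEMA5A (ENSG00000112902.12) is encoded on chromosome 5 at 9035026 to 9546075 on the minus strand of GRCh38 in GENCODE 29, a span of 511 kb. It was at 22.7, 19.9 and 19.3 TPM in the scrambled libraries and at 2.78, 4.29 and 3.77 TPM in MYH7B ASO replicates 2 to 4. The lowest scrambled library was far above the highest MYH7B ASO library, and reordered replicate 1, at 5.09 TPM, also lay below every scrambled library. The mean was 20.6 ± 1.79 TPM (SD, n = 3) under the scrambled ASO and 3.61 ± 0.767 TPM (SD, n = 3) under the MYH7B ASO, which is 17.5% of the scrambled mean. On the log2(TPM + 1) scale, which understates differences at low levels, the difference was -2.24 (SE 0.19). With replicate 1 included it was -2.14. The authors' deposited table gives SEMA5A a shrunken log2 fold change of -2.10. Here and below, that table is a comparison of counts that may include replicate 1, so its values are not like for like with those of limma. In bulk RNA, fewer cells of a type and less RNA per cell cannot be told apart.

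**Figure D1:**
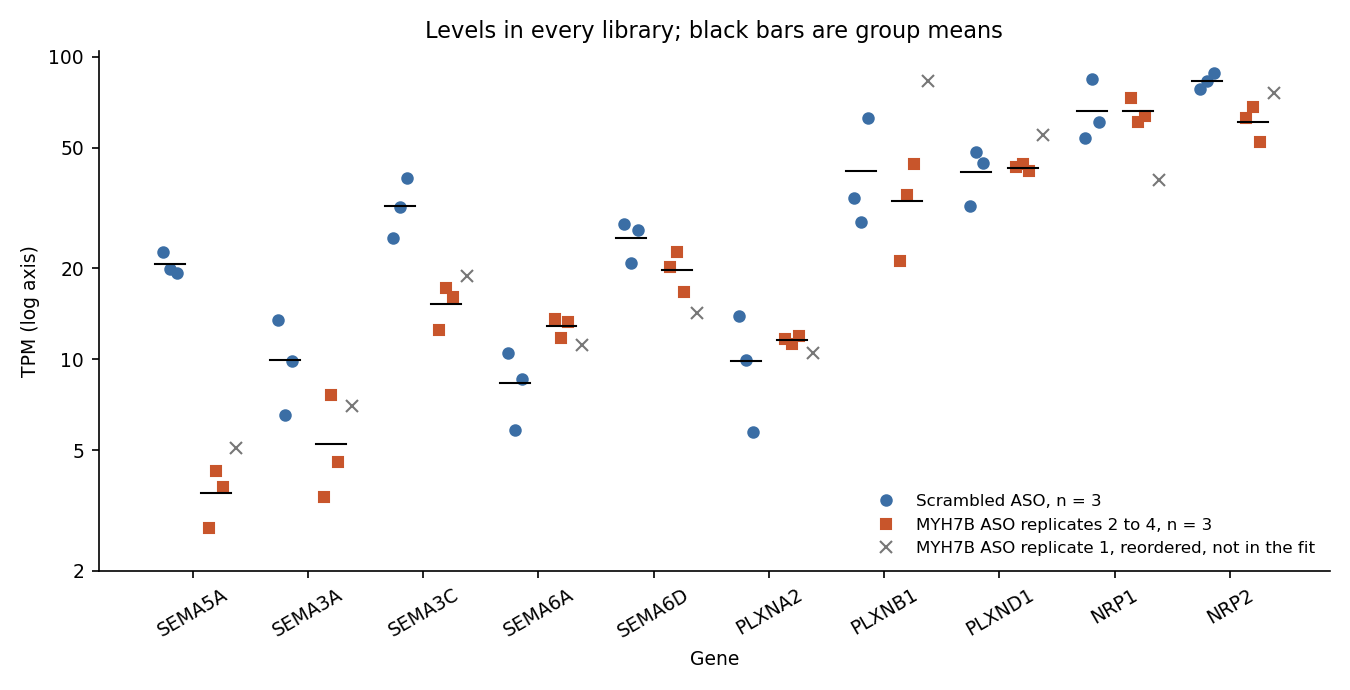
TPM of the 10 genes (vertical log axis) in each scrambled ASO library (circles, n = 3), in MYH7B ASO replicates 2 to 4 (squares, n = 3) and in reordered replicate 1 (crosses), with group means as black bars. SEMA5A lies between 19.3 and 22.7 TPM in the scrambled libraries and between 2.78 and 5.09 TPM in the 4 MYH7B ASO libraries, while PLXND1 and NRP1 overlap.

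The genes next to SEMA5A and inside it were read from the same libraries. SNHG18, a small nucleolar RNA host gene on the plus strand of chromosome 5 at 9546200 to 9550609, starts head to head with SEMA5A, and one of its exons lies in the SEMA5A window printed above. SNHG18 was at 93.6, 74.8 and 81.3 TPM in the scrambled libraries and at 62.0, 60.8 and 78.7 TPM in the MYH7B ASO libraries 2 to 4. Its groups overlapped. Its log2 difference was -0.31 (SE 0.16, 95% interval -0.67 to 0.050, limma adjusted p = 0.401). Reordered replicate 1 was lower, at 26.8 TPM. GENCODE 29 places 6 genes within or across SEMA5A, and the antisense transcript SEMA5A-AS1, listed at 0 in MYH7B ASO replicates 2 to 4, had the highest mean of them, 0.073 TPM under the scrambled ASO. SEMA5B, the other class 5 semaphorin, was at 1.98, 1.70 and 3.44 TPM in the scrambled libraries and at 2.10, 3.81 and 3.03 TPM in MYH7B ASO replicates 2 to 4. SEMA5B therefore overlapped between the groups, with a log2 difference of 0.25 (SE 0.31, limma adjusted p = 0.745). The ratio of SEMA5A to SEMA5B was 11.4, 11.7 and 5.61 in the scrambled libraries and 1.33, 1.13 and 1.25 in MYH7B ASO replicates 2 to 4. SEMA5A was thus several times as abundant as SEMA5B in the scrambled libraries and close to it in level under the MYH7B ASO.

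Some genes listed as markers of other cells that a cardiomyocyte culture can hold also differed between these groups. Listed genes, such as DES and ACTA2, need not be confined to the cell type of their list, so a sum does not measure cell number. The 10 fibroblast markers summed to 2933 to 5254 TPM in the scrambled libraries and 1389 to 2132 TPM in MYH7B ASO replicates 2 to 4. Most of the scrambled sum was COL1A1, COL3A1 and COL1A2, with means of 1667, 1099 and 765 TPM. Of the list 8 of 10 were below 0, against 8767 of 15988 over all genes tested. COL1A2 and LUM were called lower (limma adjusted p under 0.05), where 1.48% of all genes tested were. With replicate 1, whose sum was 4155 TPM, both calls were lost (limma adjusted p 0.207 for COL1A2 and 0.391 for LUM). In the same list PDGFRA went from a mean of 23.7 to 36.3 TPM and TCF21 from 8.40 to 14.4 TPM, both higher without overlap, neither past the test. COL1A1, COL3A1, DCN and DDR2 were lower without overlap, also not past the test. Over all genes tested 14.1% were lower and 7.11% higher without overlap. The 8 smooth muscle markers summed to 1337 to 1897 TPM and 857 to 1077 TPM, with MYH11, the smooth muscle myosin heavy chain, called lower (70.1 to 12.9 TPM, limma adjusted p = 0.00599). Most of the scrambled sum was ACTA2, DES, TAGLN and CNN1, with means of 551, 368, 273 and 182 TPM. Of that list 6 were below 0, against 8767 of 15988 over all genes tested, while CNN1 (182 to 215 TPM) and SMTN (10.8 to 11.2 TPM) were not. ACTA2, TAGLN, DES and PDGFRB were lower without overlap, not past the test, and RGS5 overlapped. In reordered replicate 1 ACTA2 and DES also lay below every scrambled library, and TAGLN and PDGFRB did not. The smooth muscle sum was 1482 TPM in reordered replicate 1, where MYH11 was at 13.4 TPM. With that library included the MYH11 call was kept (limma adjusted p = 0.0049). The 8 neuron markers summed to 28.9 to 38.3 TPM and 22.3 to 32.9 TPM, with ELAVL3 and DCX listed at 0 in at least 1 library. Their sum in replicate 1 was above every scrambled library at 78.8 TPM, of which TUBB3 was 65.8 TPM. In the neuron list STMN2 was called lower (10.3 to 2.47 TPM, limma adjusted p = 0.0341). With replicate 1 included, where STMN2 was at 2.82 TPM, the call was kept (limma adjusted p = 0.0314). SYT1 was lower without overlap but not called (2.89 to 1.11 TPM, limma adjusted p = 0.266). TUBB3 had means of 11.6 and 16.3 TPM, and MAP2 (1.96 and 1.93 TPM) and SNAP25 (4.41 and 3.91 TPM) were nearly level. The 8 endothelial markers summed to 11.8 to 13.9 TPM and 5.0 to 8.86 TPM, with ERG, EMCN and ROBO4 listed at 0 in at least 1 library. That sum was mostly TEK (10.6 to 4.61 TPM, limma adjusted p = 0.111), since the other 7 had a mean under 1 TPM, and TIE1 and ROBO4 had higher means under the MYH7B ASO. The 6 epicardial markers (329 to 405 TPM and 245 to 376 TPM) and the 7 pluripotency markers (5.57 to 8.21 TPM and 4.06 to 7.97 TPM) overlapped, with SOX2 listed at 0 in a library. The part of other cell types in the differences given here was not tested.

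Among the secreted ligands, SEMA3C and SEMA3A were lower on average under the MYH7B ASO, and neither passed the test over all genes. SEMA3C (ENSG00000075223.14, chromosome 7, 80742538 to 80922359, minus strand) was at 25.1, 31.9 and 39.7 TPM in the scrambled libraries and at 12.5, 17.2 and 16.1 TPM in MYH7B ASO replicates 2 to 4. The groups did not overlap, and reordered replicate 1, at 18.9 TPM, also lay below the scrambled libraries. The mean went from 32.2 ± 7.27 to 15.3 ± 2.45 TPM (SD, n = 3 each), or 47.3% of the scrambled mean. The log2 difference was -1.02 (SE 0.21, 95% interval -1.49 to -0.55), with a limma adjusted p of 0.0543, just above the threshold of 0.05. It passed in 2 of 19 alternative settings, and its adjusted p ranged from 0.0275 to 0.720 over them. The highest values came from the 4 fits with a term for replicate number, which had little power and called 0 of all genes. The authors' deposited table lists SEMA3C at -0.84 on the log2 scale (adjusted p 1.5e-04).

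SEMA3A, the founding class 3 ligand, signals through NRP1. It spans 537 kb of chromosome 7 (83955777 to 84492724, minus strand) and was at 13.5, 6.56 and 9.85 TPM under the scrambled ASO and 3.51, 7.64 and 4.59 TPM under the MYH7B ASO. The groups overlapped, because MYH7B ASO replicate 3 was above scrambled replicate 2. The log2 difference was -0.81 (SE 0.31, 95% interval -1.53 to -0.10, limma adjusted p = 0.267). The authors' deposited table gives SEMA3A -0.61 with an adjusted p of 0.0739. The other class 3 ligands did not move as a block. SEMA3F was lower without overlap (32.3 to 23.4 TPM, limma adjusted p = 0.244), as was SEMA3E (2.26 to 1.21 TPM, limma adjusted p = 0.414). Both were above every scrambled library in reordered replicate 1, SEMA3F at 44.9 TPM and SEMA3E at 3.03 TPM, and with it the SEMA3F difference went from -0.46 to -0.23 and that of SEMA3E from -0.56 to -0.34. SEMA3G was higher without overlap at low levels (0.813 to 2.24 TPM, limma adjusted p = 0.443), with 4.05 TPM in MYH7B ASO replicate 2 alone, and SEMA3B and SEMA3D overlapped. The 7 class 3 genes summed to 99.0 ± 18.6 TPM under the scrambled ASO and 68.9 ± 10.04 TPM under the MYH7B ASO (SD, n = 3 each), and to 117 TPM in reordered replicate 1, within the scrambled range.

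The class 6 semaphorins are transmembrane ligands that bind class A plexins and can also signal into the cell that carries them. SEMA6A was higher on average under the MYH7B ASO, at 13.6, 11.8 and 13.3 TPM in replicates 2 to 4 against 10.5, 5.85 and 8.61 TPM in the scrambled libraries. The groups did not overlap, and reordered replicate 1 was at 11.2 TPM. The log2 difference was 0.61 (SE 0.22, 95% interval 0.11 to 1.10, limma adjusted p = 0.235), so the call was not made. The authors' deposited table gives SEMA6A 0.58 with an adjusted p of 0.0358. An antisense gene, SEMA6A-AS1, lies inside SEMA6A (chromosome 5, 116443616 to 116574934, minus strand) and was at 0, 0 and 0.776 TPM in the scrambled libraries and at 4.19, 2.01 and 1.70 TPM in MYH7B ASO replicates 2 to 4. Its log2 difference was 1.52 (limma adjusted p = 0.152). The strand setting of the counting is not given in the sources used here, so reads of the gene and of its antisense partner cannot be told apart.

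SEMA6D, the chamber morphogenesis ligand, differed in sign from SEMA6A. It spans 590 kb of chromosome 15 (47184101 to 47774223, plus strand) and was at 28.0, 20.8 and 26.7 TPM in the scrambled libraries and at 20.1, 22.7 and 16.7 TPM in MYH7B ASO replicates 2 to 4. The groups overlapped, and the log2 difference was -0.33 (SE 0.18, 95% interval -0.74 to 0.087, limma adjusted p = 0.443). SEMA6B was higher without overlap (15.1 to 22.5 TPM, limma adjusted p = 0.283), and SEMA6C overlapped. The 4 class 6 genes summed to 58.3 ± 5.41 TPM and 68.3 ± 10.2 TPM (SD, n = 3 each), so the class total overlapped between the groups.

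The plexins among the 10 genes showed no difference that passed the test, and their intervals all included 0. PLXND1, the SEMA3E receptor that also takes part in SEMA3C signalling, was at 32.2, 48.6 and 44.5 TPM in the scrambled libraries and at 43.2, 44.1 and 41.8 TPM in MYH7B ASO replicates 2 to 4. Its log2 difference was 0.06 with a 95% interval of -0.34 to 0.46 (limma adjusted p = 0.903). PLXNA2, a partner of class 6 and class 3 ligands on chromosome 1 (208022242 to 208244320, minus strand), was at 13.9, 9.97 and 5.75 TPM and at 11.7, 11.2 and 11.9 TPM. All 3 MYH7B ASO values lay within the scrambled range, which was wide (9.88 ± 4.09 TPM, SD, n = 3). The PLXNA2 interval ran from -0.34 to 0.92 (limma adjusted p = 0.667). PLXNB1, the SEMA4D receptor, varied widely, at 34.2, 28.6 and 62.8 TPM and at 21.1, 34.8 and 44.1 TPM, with reordered replicate 1 at 83.5 TPM. Its log2 difference was -0.30 with an interval of -1.07 to 0.47 (limma adjusted p = 0.722), and 0.04 with replicate 1 included. These intervals leave room for a change of up to about 1 log2 unit in PLXNA2 and PLXNB1, so that no difference was detectable rather than shown to be absent.

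Outside the 10 genes, PLXNA4, a class A plexin that transduces SEMA3A signals, was lower without overlap (7.65 ± 1.76 to 4.20 ± 0.437 TPM, SD, n = 3 each). Its log2 difference was -0.72 (SE 0.22, limma adjusted p = 0.167). For PLXNA4 the authors' deposited table gives -0.68 with an adjusted p of 0.00517. PLXNB3, the receptor described for SEMA5A, was low and uneven, at 8.64, 0.956 and 1.97 TPM in the scrambled libraries and 1.39, 5.37 and 1.71 TPM in MYH7B ASO replicates 2 to 4. The 9 plexins summed to 221 ± 26.9 TPM and 211 ± 8.72 TPM (SD, n = 3 each), and PLXNB2 was the most abundant in both groups (81.4 and 81.7 TPM).

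The neuropilins had the highest group means of the 10 genes, although PLXNB1 was above NRP1 in scrambled replicate 3 and above both in reordered replicate 1. NRP2, which prefers SEMA3C and SEMA3F and also binds VEGFC, was at 78.1, 83.2 and 88.2 TPM in the scrambled libraries and at 62.6, 68.6 and 52.1 TPM in MYH7B ASO replicates 2 to 4. These groups did not overlap, although reordered replicate 1 came close to the scrambled libraries at 76.1 TPM. The mean went from 83.1 ± 5.04 to 61.1 ± 8.32 TPM (SD, n = 3 each), or 73.5% of the scrambled mean, and the log2 difference was -0.45 (SE 0.15, 95% interval -0.78 to -0.11). NRP2 did not pass the test (limma adjusted p = 0.200). The authors' deposited table, a comparison of counts, lists it at -0.36 with an adjusted p of 0.0443. NRP1, the coreceptor of SEMA3A and of VEGFA, was at 54.0, 84.7 and 60.7 TPM and at 73.4, 61.0 and 63.9 TPM. Its groups overlapped, with a log2 difference of 0.01 and an interval of -0.41 to 0.44 (limma adjusted p = 0.982). Reordered replicate 1 was lower, at 39.2 TPM, and with it included the difference was -0.17. The ratio of NRP2 to NRP1 was 1.45, 0.982 and 1.45 in the scrambled libraries and 0.854, 1.12 and 0.816 in MYH7B ASO replicates 2 to 4, and the ranges overlapped.

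Counted together, 0 of the 9 genes other than SEMA5A were called by limma at an adjusted p under 0.05, where 1.66% of the 15988 genes tested were called in either direction and 1.48% were called lower. At an unadjusted p under 0.05 there were 4, namely SEMA3A, SEMA3C and NRP2 below 0 and SEMA6A above 0, against 15.2% of all genes. The groups did not overlap for SEMA3C and NRP2 in the lower direction, where the share over all genes was 14.1%, and for SEMA6A in the higher direction, where it was 7.11%. Of the 9 differences 5 were below 0 and 4 above, with a median of -0.30 against -0.04 over all genes tested. With replicate 1 included, 0 of the 9 were called, against 1.07% of genes. By the adjusted p of the authors' deposited table, SEMA3C, NRP2 and SEMA6A passed, 3 of the 9 (the first 2 lower, the last higher), where 8.71% of all genes with such a value did. That table comes from the same series and is not a second experiment.

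The whole human family was read in the same way. Of the 30 semaphorins, plexins and neuropilins other than SEMA5A, 29 reached a mean of 1 TPM and were tested, and SEMA4A was not. limma called 0 of them at an adjusted p under 0.05, against 1.66% of all genes, and 8 had an unadjusted p under 0.05 (5 lower, 3 higher), against 15.2% of all genes. Their differences were split, with 13 below 0 and 16 above and a median of 0.01. The groups lay apart for 6 lower genes and 3 higher genes, where 14.1% and 7.11% of all genes did. The medians by class were -0.46 for class 3 (7 tested), 0.10 for class 4 (5 tested), 0.45 for class 6 (4 tested) and -0.01 for the plexins (9 tested). By the authors' deposited table, a total of 7 of the 30 passed, against 8.71% of all genes, with SEMA3C, NRP2 and PLXNA4 lower and SEMA3G, SEMA6A, SEMA6B and SEMA7A higher.

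**Figure D2:**
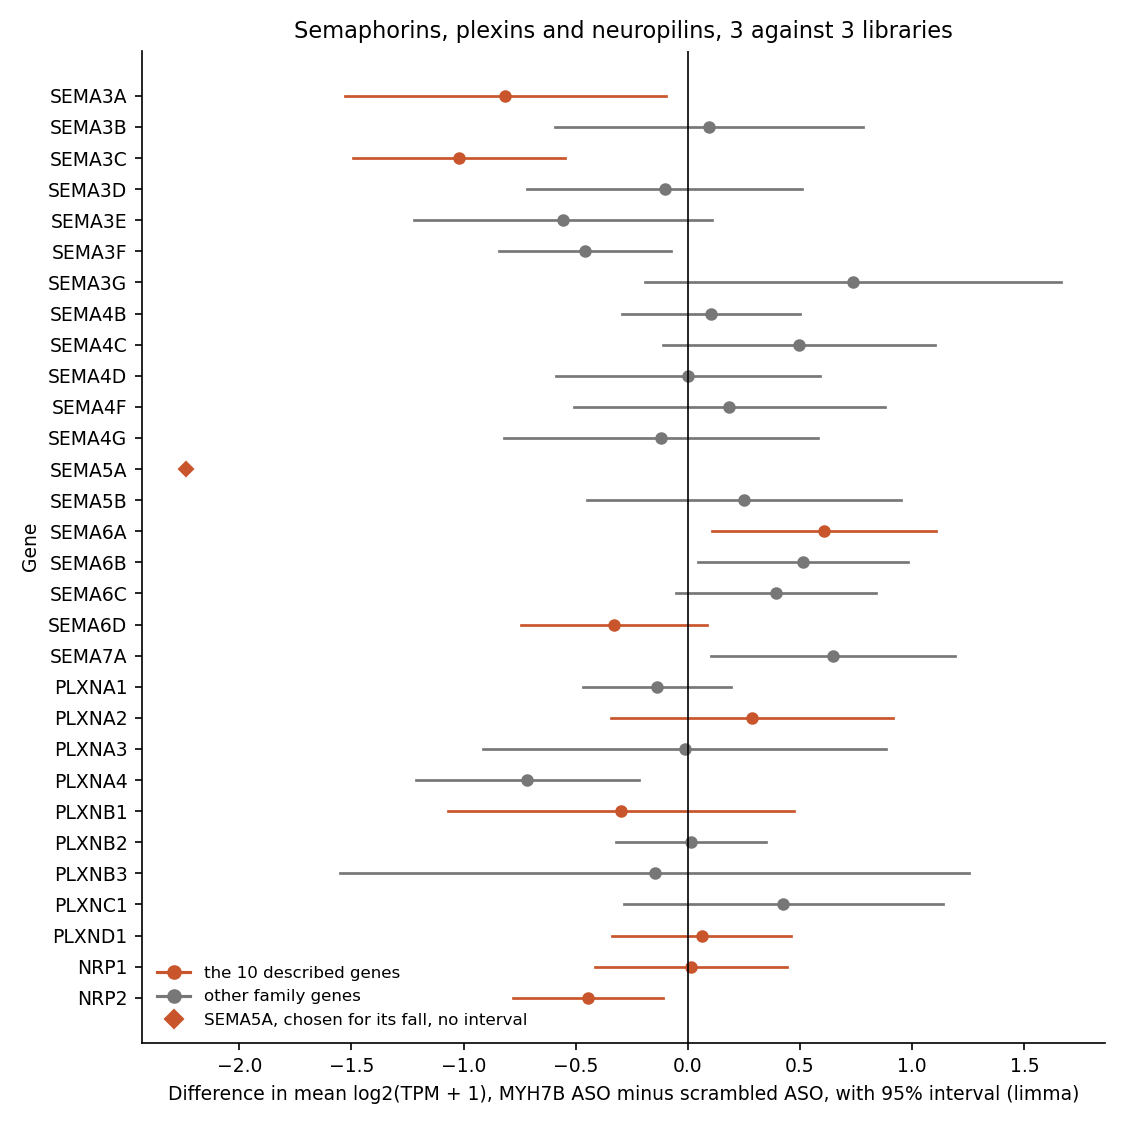
Difference in mean log2(TPM + 1), MYH7B ASO minus scrambled ASO (horizontal axis), for the 30 tested semaphorins, plexins and neuropilins, with 95% limma intervals as lines and n = 3 libraries in each group. SEMA5A, drawn without an interval because it was chosen by this value, is at -2.24, and SEMA3C, the next lowest, is at -1.02.

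The order of the semaphorin levels gives the place of SEMA5A in these cells. Among 20 semaphorins SEMA5A ranked 5 under the scrambled ASO, below SEMA3F (32.3 ± 2.94 TPM), SEMA3C, SEMA4B and SEMA6D, and just above SEMA3B (18.3 ± 8.60 TPM). Under the MYH7B ASO it ranked 15, between SEMA4F (3.69 ± 1.52 TPM) and SEMA5B (2.98 ± 0.857 TPM). The ranges of SEMA6D and SEMA3B in the first group, and of SEMA4F and SEMA5B in the second, overlapped that of SEMA5A. Library by library, SEMA6D was above SEMA5A in every scrambled library. SEMA5B was below SEMA5A in MYH7B ASO replicates 2 to 4, while SEMA3B and SEMA4F varied in order. These ranks were not tested. SEMA3C went from rank 2 to rank 7, SEMA3A from 10 to 13 and SEMA6A from 12 to 9, whereas SEMA6D went from 4 to 5. The 20 semaphorins together were at 252 ± 33.2 TPM and 228 ± 32.3 TPM (SD, n = 3 each), so the family total overlapped between the groups. Class 5 went from 23.0 ± 1.54 to 6.59 ± 1.62 TPM, but its scrambled sum was mostly SEMA5A, chosen for its fall. SEMA5B, the other class 5 gene, had means of 2.37 and 2.98 TPM.

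**Figure D3:**
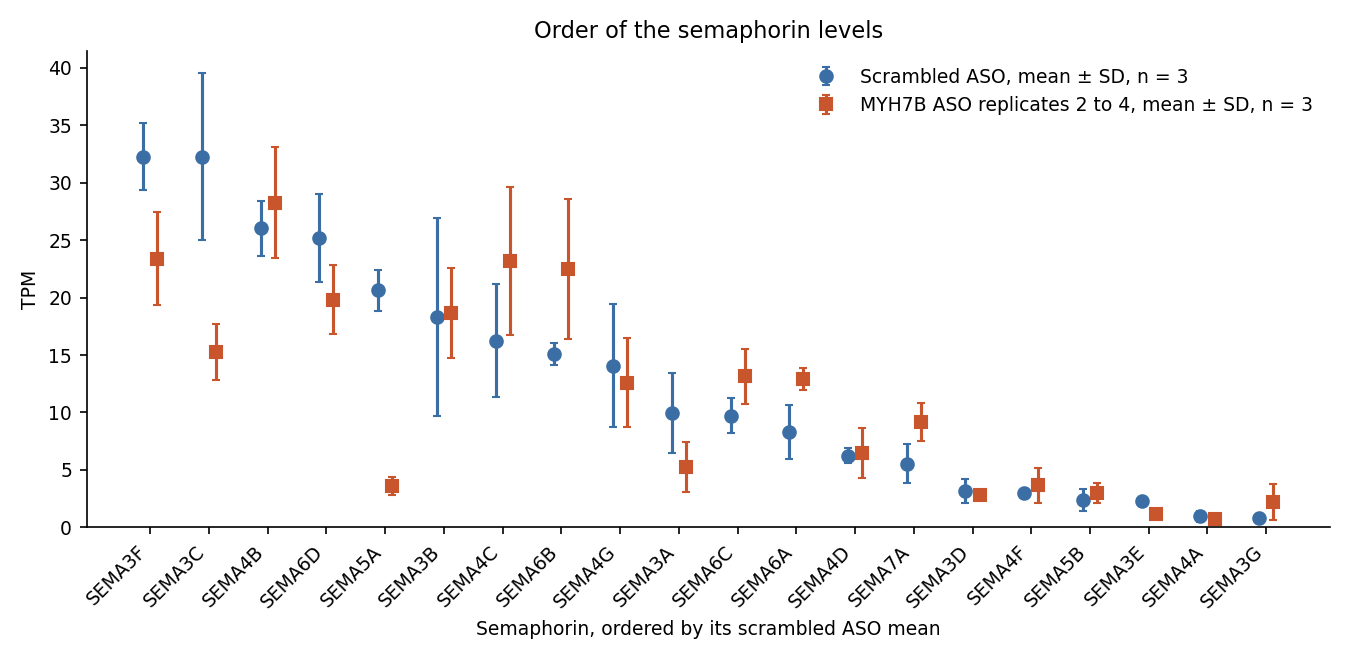
Mean TPM with SD as bars for the 20 semaphorins, ordered by their scrambled ASO mean, in the scrambled ASO group (circles, n = 3) and in MYH7B ASO replicates 2 to 4 (squares, n = 3). SEMA5A stands at 20.6 TPM in the first group and at 3.61 TPM in the second, and the bars of most other semaphorins overlap.

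Other semaphorin signalling genes were taken from a list of 53 coreceptors, neuropilin ligands, plexin-bound GTPases and exchange factors, collapsin response mediator proteins, MICAL enzymes and kinases. Of 48 tested genes 2 were called lower and 0 higher. Over all genes tested 1.48% were called lower and 1.66% in either direction. Both encode exchange factors for small GTPases, and the nearest relatives in the list were level, with FARP2 at 99.2% and ARHGEF11 at 99.4% of the scrambled mean. FARP1, an exchange factor that has been placed in semaphorin 6A and plexin A signalling, was at 55.3, 54.5 and 57.1 TPM in the scrambled libraries and at 20.7, 28.2 and 23.0 TPM in MYH7B ASO replicates 2 to 4. Its log2 difference was -1.19 (SE 0.15, limma adjusted p = 0.0109), and reordered replicate 1 was at 33.9 TPM. Without MYH7B ASO replicate 4 the adjusted p of FARP1 was 0.0618. ARHGEF12, a RHOA exchange factor that binds class B plexins, was at 19.2, 19.6 and 16.0 TPM and at 10.2, 9.40 and 8.07 TPM (log2 difference -0.92, SE 0.17, limma adjusted p = 0.0389). The ARHGEF12 call was lost whichever library was left out, with adjusted p from 0.0633 to 0.167. For both exchange factors every MYH7B ASO library was below every scrambled library. FARP1 passed in 14 of 19 alternative settings and ARHGEF12 in 5 of 19. For both, the settings not passed include the 4 fits with a term for replicate number, which had little power and called 0 of all genes.

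In the signalling list 31 differences were below 0 and 17 above, with a median of -0.09 against -0.04 over all genes, and 4 of 48 had an unadjusted p under 0.05, all lower, a smaller share than the 15.2% of all genes. Those not called were ITGA1, the integrin alpha 1 subunit (30.7 ± 4.18 to 10.4 ± 5.14 TPM, limma adjusted p = 0.0513, and 0.0436 with replicate 1), and ROCK1, a kinase that acts below RHOA (limma adjusted p = 0.120). In the authors' deposited table the same 4 genes passed, out of 49 with a value and so near the 8.71% of all genes, with adjusted p of 2.67e-10 for FARP1, 5.5e-06 for ARHGEF12, 1.4e-05 for ITGA1 and 0.00338 for ROCK1.

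Gene span in the annotation was set beside the differences. Of the 13 tested family genes of at least 100 kb other than SEMA5A, 7 were below 0 (53.8%), with a median of -0.10, against 78.0% and a median of -0.31 over all tested genes of that span. GENCODE 29 gives 5 tested family genes a span of at least 250 kb, a limit set after the values were seen. These are SEMA3E (286 kb), SEMA5A (511 kb), PLXNA4 (525 kb), SEMA3A (537 kb) and SEMA6D (590 kb), and the 4 other than SEMA5A were all below 0, with a median of -0.64. Of all tested genes of that span 653 of 760, or 85.9%, were below 0, with a median of -0.51. SEMA6A (131 kb) and PLXNA2 (222 kb) lay above 0. Across genes, Spearman's rho between span and difference was -0.51 in the family (30 genes), -0.46 without SEMA5A (29 genes) and -0.31 over 15852 genes. The points share the same 6 libraries and are not independent, and no p is given. The part of gene length in these differences was not tested.

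**Figure D4:**
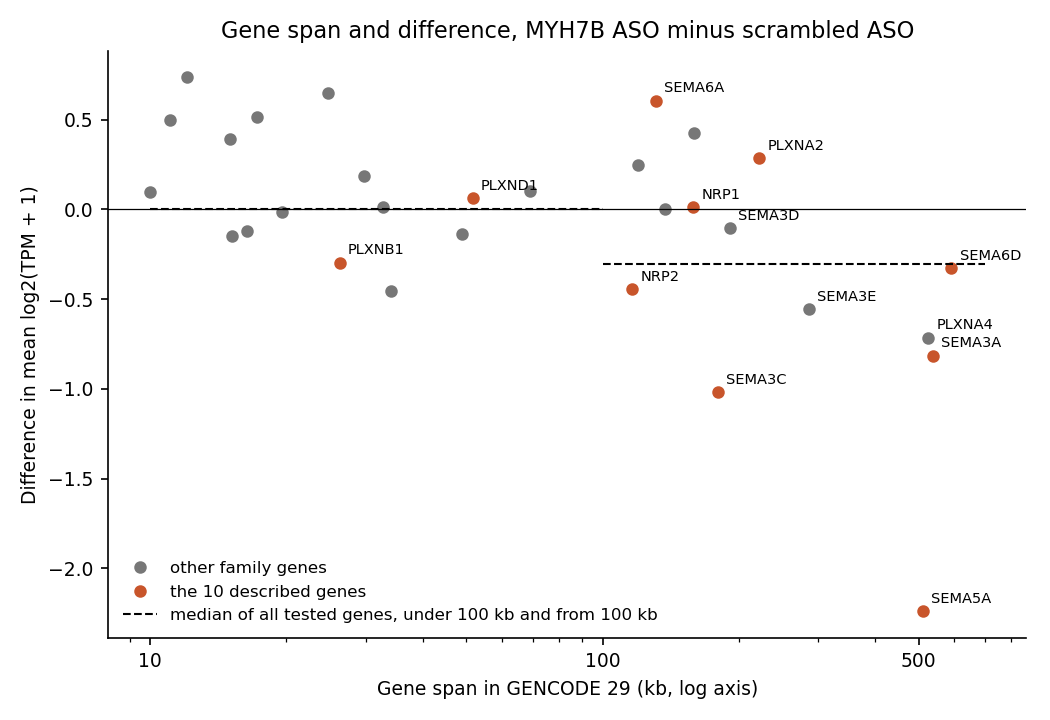
Difference in mean log2(TPM + 1), MYH7B ASO minus scrambled ASO (vertical axis), against gene span in kb (horizontal log axis) for the 30 tested family genes, with dashed lines at the medians of all tested genes under 100 kb and from 100 kb. The 5 family genes of at least 250 kb lie below 0, from SEMA6D at -0.33 to SEMA5A at -2.24.

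Genes whose levels ran most like SEMA5A were found by Pearson's r of log2(TPM + 1) over the 6 libraries. The highest were FRAS1 (r = 0.997), an extracellular matrix protein of basement membranes, CFAP97 (0.996), DCLK1 (0.995), a microtubule-binding kinase, LEPR (0.994), the leptin receptor, and PRRX1 (0.994), a mesenchymal homeobox factor. FRAS1 went from 35.1 ± 0.596 to 9.90 ± 1.99 TPM, DCLK1 from 7.15 to 1.84 TPM, LEPR from 24.9 to 7.85 TPM and PRRX1 from 22.0 to 9.05 TPM. CFAP97 differed far less, from 15.5 to 11.98 TPM, since r does not depend on the size of a difference. Where 2 groups lie apart, a high r can come largely from the difference between them, and 258 of 15987 genes reached 0.95.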

How the data were processed

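Polyadenylated RNA was sequenced from 3 scrambled ASO and 4 MYH7B ASO libraries, grouped by the treatment label. The authors deposited TPM per gene for each library. Their deposited comparison table gives each gene, per the file headers, a mean signal over libraries (normalized counts), a log2 fold change with SE, a test score, and raw and adjusted p-values. The name of that table calls its fold changes shrunken. GRCh38.p13 and DESeq2 are named in the submitters' processing notes. The aligner and the quantifier are not given in the sources used here.

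Genes averaging 1 TPM or more in the fitted libraries were tested with limma 3.58.1 (lmFit, eBayes with an intensity trend) in R 4.3.3 on log2(TPM + 1), with Benjamini-Hochberg adjustment over all genes tested and a threshold of 0.05. The fit was tested on simulated data. A permutation test of 3 against 3 libraries cannot go below 0.1 and was not used. Depth is unknown, so no counting interval is given, and replicate spread is the only measure of error. Gene positions and spans are those of GENCODE 29, which may differ from the authors' annotation. Python 3.11.15, pandas 2.3.3, numpy 2.4.6, scipy 1.17.1 and matplotlib 3.10.9 were used.

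The members, gene lists, marker lists and tests were chosen with earlier results of these data known. Named genes are the 10 members, family genes of at least 1 TPM, called signalling genes, MYH7B and the 5 genes most correlated with SEMA5A, and ITGA1 and ROCK1 were added after their values were seen. The marker lists are cardiomyocyte, fibroblast, endothelial, smooth muscle, neuron, epicardial and pluripotency genes. The alternatives were pseudocounts of 0.1 and 5, other minimum levels, other scalings, no trend, 7 libraries, replicate blocks and leaving out each library.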

Additional observations from a re-analysis of the deposited data

Results flagged for a closer look

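In the 4 MYH7B ASO libraries, replicate 1 reordered, 31 family genes were examined for a library whose gap to the nearest other was large beside the range (Dixon's ratio), which chance gives in about 1 of 20 groups. A distant library was found for 5 genes, and in 4 of these it was replicate 1, which had the lowest mitochondrial share and rests on the reordering. PLXND1 was at 55.1 TPM in replicate 1 against 41.8 to 44.1 TPM in the others. PLXNB2 was at 157 TPM in replicate 1 against 76.7 to 85.3 TPM. PLXNA1 was at 33.9 TPM in replicate 1 against 14.5 to 16.0 TPM. SEMA3E was at 3.03 TPM in replicate 1 against 1.11 to 1.36 TPM. SEMA3G was at 4.05 TPM in replicate 2 against 1.19 to 1.45 TPM.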

How the results depend on the processing

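SEMA5A stayed between -2.50 (pseudocount 0.1) and -1.57 (pseudocount 5) in all 19 alternatives, with -2.34 to -2.10 when a library was left out, and SEMA3A, SEMA3C, SEMA6A, SEMA6D and NRP2 kept their sign in all 19. Of 9 members, and of the family, 1 gene (SEMA3C) was called with a minimum mean of 5 TPM (adjusted p 0.0275) and with mitochondrial genes removed (0.0457). Over all genes 265 were called, 40 with no minimum, 150 without the trend, 170 with 7 libraries and 53 to 149 when a library was left out, fewest without MYH7B ASO replicate 4. Of these calls 89.1% were lower, and 78.6% under median-ratio scaling. In the signalling list 2 were called, 1 with no minimum, with quantile normalization, with mitochondrial genes removed and without the trend, and 0 to 2 when a library was left out.

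Whether the replicate numbers pair the libraries was checked over 7 libraries, with each gene's group mean subtracted from log2(TPM + 1). Scrambled and MYH7B ASO libraries of the same number had a mean correlation of 0.060 by title number and -0.026 by description number. For libraries of different numbers the means were -0.021 and 0.0081. Of 3 scrambled libraries, 1 and 0 correlated best with their own number. With 3 same-numbered pairs, this check is too small to decide whether the libraries are paired. With the replicate block limma called 0 genes in all 4 fits, against 1718, 1096, 1773 and 1434 at an unadjusted p under 0.05, and so 0 signalling genes. With a term for each replicate number, few libraries are left to estimate the spread. These 4 fits therefore had little power to call any gene, and their lack of calls decides nothing about single genes. SEMA5A was at -2.04 with the description block and -2.01 with it over 7 libraries.

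Members near 0 changed sign. PLXNA2 ran from -0.022 to 0.55 when a library was left out. PLXNB1 was 0.043 over 7 libraries, 0.0051 and 0.35 with the title and description blocks over 7, and -0.52 to 0.031 when a library was left out. PLXND1 was -0.090 and -0.11 with the title and description blocks over 6 libraries and -0.11 to 0.18 when a library was left out. NRP1 was -0.17 over 7 libraries, -0.10 and -0.20 with the blocks over 6, -0.22 and -0.28 over 7, and -0.12 to 0.20 when a library was left out. The cause was not tested.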
